A study of Mus musculus with 9 samples.

Results

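Transcripts of 8 genes of the LIF receptor and STAT3 pathway were followed in mouse embryonic stem cells that were wild type, carried a knockout of UTX or were labelled as a knockdown of MLL4. The genes were Lifr, Il6st, Jak1, Jak2, Stat3, Socs3, Icam1 and Pim1. They were chosen by gene symbol as receptor chains, kinases, the transcription factor and its feedback and target genes, and all 8 were found among the 33924 genes of the deposited count table. LIF is a cytokine that holds mouse embryonic stem cells in the naive pluripotent state. It binds the receptor chain LIFR, which pairs with the shared signal chain gp130 (gene Il6st), and the JAK kinases bound to these chains phosphorylate STAT3. Phosphorylated STAT3 enters the nucleus and activates target genes, among them the feedback inhibitor gene Socs3.

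The study asked how UTX, an X-linked H3K27 demethylase (gene Kdm6a), and MLL4, an enhancer H3K4 methyltransferase (gene Kmt2d), shape transcription in these cells. RNA was sequenced in 9 libraries of untreated male embryonic stem cells, with 3 libraries in each group. All groups were grown on gelatin in serum medium that contained LIF, so the pathway was supplied with its ligand throughout, and no group without LIF was part of the design. Wild type libraries have JM8A in their titles, as do those labelled MLL4 knockdown, which carry a further number, and UTX knockout libraries have A6. The labels explain none of these names. Line or clone and perturbation can therefore not be told apart.

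Kdm6a stood at 57.1 to 90.7 CPM (counts scaled to library size) in wild type and at 12.8 to 19.4 in UTX knockout cells. Kmt2d (Mll2 in the table, an older symbol) ranged from 43.5 to 119 CPM in wild type and from 71.0 to 73.4 in libraries labelled MLL4 knockdown, a log2 fold change of -0.20 (edgeR quasi-likelihood test, adjusted p = 0.624). Wild type replicate 2, at 43.5 CPM, lay below those libraries, and replicates 1 and 3, at 86.2 and 119, lay above them. Against UTX knockout cells, at 96.9 to 130 CPM, the groups did not overlap. The value there was -0.64 (edgeR adjusted p = 0.0987), which did not pass. Neither test of that transcript bears out the label, so reading any difference in those libraries as an effect of less MLL4 rests on the label alone. Uty, the Y-linked relative of Kdm6a, was low in both perturbed groups: 9.67 to 16.8 CPM in wild type, 0.785 to 0.908 in UTX knockout cells (log2 fold change -4.07, edgeR adjusted p = 3.951e-05) and 0.724 to 1.13 in libraries labelled MLL4 knockdown (-3.83, adjusted p = 7.795e-06). Both perturbed groups thus share a difference from wild type that neither label names, and its part in the changes that both groups share was not tested. Total counts lay between 18570746 and 23874816 per library, and each of the 8 genes had at least 144 counts in every library. All 7 stem cell markers were present, with a summed level of 4634 to 6470 CPM over the 9 libraries. Single markers differed in direction. Zfp42 stood at 71.1 to 90.7 CPM in wild type, 48.2 to 61.9 in UTX knockout cells and 41.7 to 51.4 in libraries labelled MLL4 knockdown. Dppa5a stood at 667 to 1301, 1071 to 1484 and 396 to 559 CPM in the same order. Nanog, Esrrb and Tdgf1 lay above wild type in every perturbed library, and Pou5f1 and Sox2 overlapped wild type. In some markers of other cell types wild type replicate 1 stood apart from the other wild type libraries. Its summed fibroblast or feeder markers were 46.5 CPM against 229 and 167, and its summed trophectoderm markers 53.4 CPM against 484 and 395. Over the counts of all genes, replicate 2 was the most distant wild type library. Chi-square over its degrees of freedom was 56.4 between replicates 1 and 2, 56.5 between 2 and 3, and 31.6 between 1 and 3. Nothing in the labels says that replicates are separate cultures, and the p-values then reflect only how far these samples spread, possibly for technical reasons. Bulk RNA cannot tell fewer cells of a type from less RNA per cell.

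STAT3 binds a palindromic motif of the form TTCNNNGAA (N is any base; the reverse strand reads the same), and 2 of the 8 genes held it in the 250 bases before an annotated start. These promoter windows are shown because they are the windows of this set with the letters of the motif, marked in capitals. They come from RefSeq (build GRCm38.p6) and read 5′ to 3′ on the gene's strand. The Icam1 window lies at chr9:21015690-21015939 on the plus strand and the Socs3 window at chr11:117969367-117969616 on the minus strand.
Icam1: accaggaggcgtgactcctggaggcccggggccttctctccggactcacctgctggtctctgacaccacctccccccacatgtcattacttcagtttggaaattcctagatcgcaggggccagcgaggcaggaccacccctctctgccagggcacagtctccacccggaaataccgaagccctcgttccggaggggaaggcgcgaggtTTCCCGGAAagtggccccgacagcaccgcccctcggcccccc
Socs3: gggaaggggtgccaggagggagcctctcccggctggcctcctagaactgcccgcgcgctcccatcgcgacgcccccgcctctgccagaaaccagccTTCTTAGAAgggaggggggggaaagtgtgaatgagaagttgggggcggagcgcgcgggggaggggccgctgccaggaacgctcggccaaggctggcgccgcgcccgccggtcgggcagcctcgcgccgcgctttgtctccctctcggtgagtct
The match in Icam1, TTCCCGGAA, begins 42 bases before the start, and the match in Socs3, TTCTTAGAA, begins 154 bases before it. The table held 10 windows for the 8 genes, since Lifr and Pim1 had 2 starts each. Of these 10 windows 2 held the motif, against 2306 of all 32851 windows of the same length, which is 7.02%. Counted by gene it was 2197 of 27025, or 8.13%. A match describes the letters only, and these data hold no measure of STAT3 binding.

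Against wild type, 3 of the 8 genes rose in UTX knockout cells and 0 fell: Lifr, Stat3 and Icam1. Among all 14772 tested genes 15.5% changed in that comparison, 6.55% up and 8.92% down. Of the same 8 genes 4 rose in libraries labelled MLL4 knockdown, Lifr, Il6st, Stat3 and Socs3, and 2 fell, Jak2 and Icam1, where 26.6% of all genes changed, 10.8% up and 15.8% down. A direct comparison of the perturbed groups found 1 gene, Il6st, higher in libraries labelled MLL4 knockdown and 2, Jak2 and Icam1, lower, where 28.9% of all genes changed, 13.0% up and 16.0% down. The median log2 fold change over the 8 genes was 0.42 in UTX knockout cells, 0.25 in libraries labelled MLL4 knockdown and -0.04 between the perturbed groups, and over all tested genes it was -0.01, -0.02 and -0.02. Both comparisons with wild type share the same 3 wild type libraries.

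**Figure D1:**
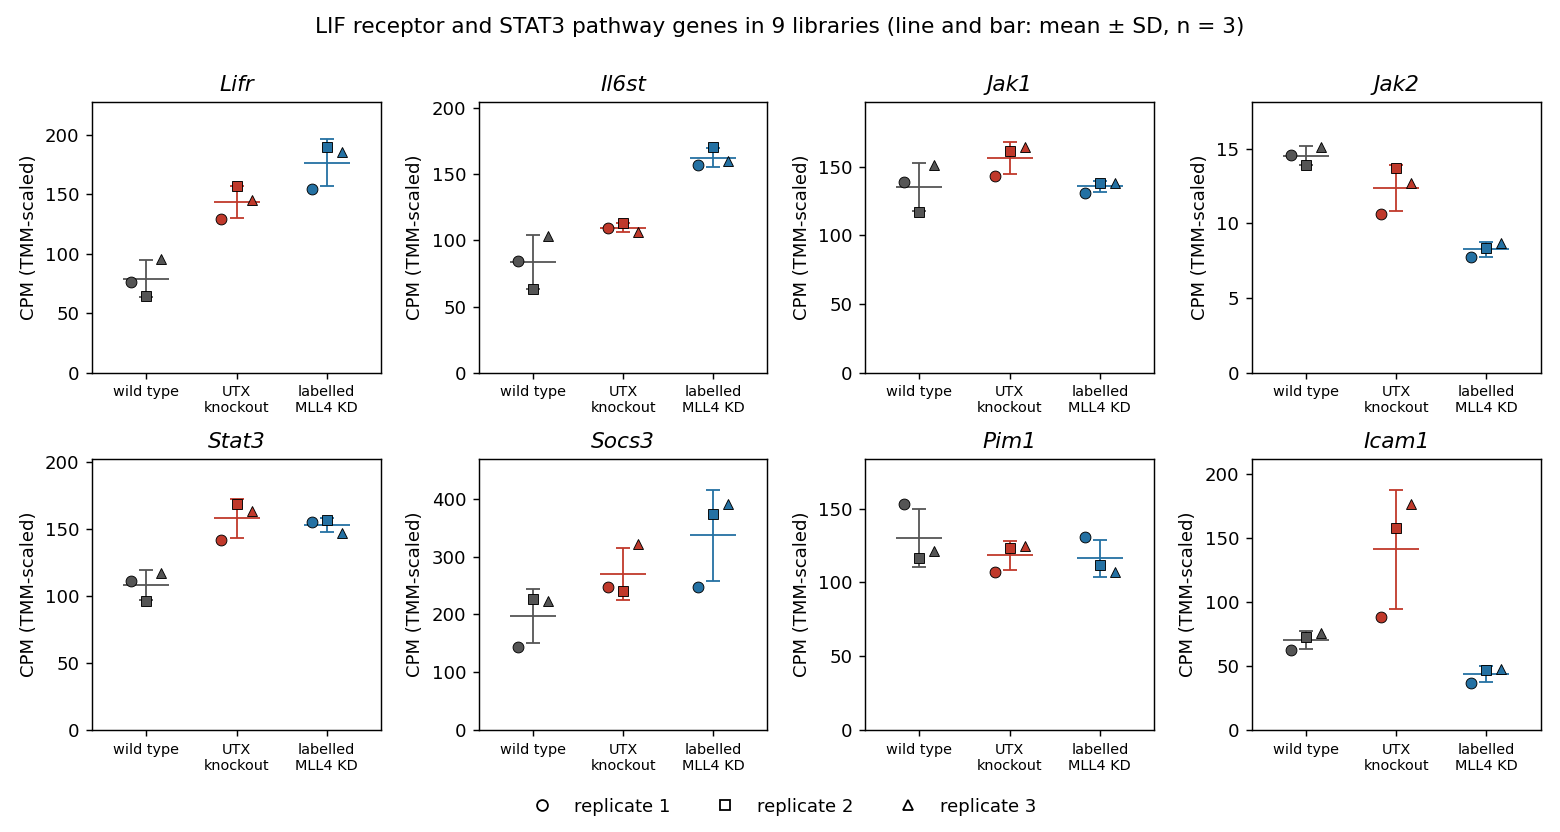
CPM of each of the 8 genes (vertical axes, scaled by TMM factors and starting at 0) in the 9 libraries, by group on the horizontal axes, where KD stands for knockdown. Each symbol is 1 library with its replicate number, and the line and bar are the mean ± SD of 3 libraries. The 3 wild type libraries of Lifr, Stat3 and Socs3 lie below all 6 others, and Icam1 is high in UTX knockout cells and low in libraries labelled MLL4 knockdown.

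Lifr encodes the LIF-binding receptor chain, and its transcript was higher in both perturbed groups. It stood at 76.2, 64.8 and 95.9 CPM in wild type replicates 1 to 3, at 129, 157 and 145 in UTX knockout cells, and at 154, 190 and 186 in libraries labelled MLL4 knockdown. All 6 perturbed libraries lay above the highest wild type library, while the perturbed groups overlapped each other. The log2 fold change in UTX knockout cells was 0.86 (SE 0.15, 95% interval 0.53 to 1.20, adjusted p = 0.00475), a 1.82-fold rise. The libraries labelled MLL4 knockdown gave 1.16 (SE 0.15, 0.83 to 1.50, adjusted p = 0.000376), a 2.24-fold rise. The difference between the perturbed groups, 0.30 (SE 0.15, -0.03 to 0.63, adjusted p = 0.156), did not pass the test. It passed where only those 2 groups were fitted (adjusted p = 0.0449).

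Il6st encodes gp130, the signal chain that LIFR shares with the receptors of other IL-6 family cytokines. It stood at 84.3, 63.1 and 104 CPM in wild type, 109, 113 and 107 in UTX knockout cells and 157, 171 and 160 in libraries labelled MLL4 knockdown, so the 3 groups formed separate steps with no overlap. Wild type spread widely, from 63.1 to 104 CPM, and its highest library came close to the UTX knockout. The rise in libraries labelled MLL4 knockdown was 0.96 on the log2 scale (SE 0.15, 0.62 to 1.30, adjusted p = 0.00116). Il6st was also higher there than in UTX knockout cells, by 0.57 (SE 0.15, adjusted p = 0.0173), a call lost when UTX knockout replicate 3 (adjusted p = 0.0662) or replicate 2 of the group labelled knockdown (0.0652) was left out. For UTX knockout cells the value was 0.39 (SE 0.15, 0.06 to 0.73, adjusted p = 0.102), which did not pass, and it was 0.58 without wild type replicate 3 (adjusted p = 0.0238).

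Per kilobase of exon, LIFR and gp130 transcripts were close to equal in wild type. The ratio of Lifr to Il6st was 0.931, 1.06 and 0.955 in wild type replicates 1 to 3, a mean of 0.981 ± 0.0670 (SD, n = 3). The knockout of UTX gave 1.22, 1.42 and 1.40 (mean 1.35 ± 0.113), and the group labelled MLL4 knockdown gave 1.01, 1.15 and 1.20 (1.12 ± 0.0974). The UTX knockout ratios lay above all other libraries, and the remaining groups overlapped. Both genes are long, with a total of 10.8 kb of exon for Lifr and 11.1 kb for Il6st, and long transcripts were on the whole higher in the perturbed groups. Over the longest genes, those of 6620 bases of exon or more, the median log2 fold change was 0.08 in UTX knockout cells and 0.12 in libraries labelled MLL4 knockdown, against -0.09 and -0.16 over the shortest, up to 2580 bases. With the length trend of each library removed Lifr stood at 0.77 and 1.04 and Il6st at 0.30 and 0.84, and the calls of both genes against wild type were as before.

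The kinase genes Jak1 and Jak2 did not follow the receptor chains. Tyk2, a kinase gene of the wider signalling list described below, was higher than wild type in both perturbed groups. Its log2 fold change was 0.51 in UTX knockout cells and 1.06 in libraries labelled MLL4 knockdown. Jak1, the kinase most tied to gp130 signalling, stood at 139, 117 and 151 CPM in wild type, 143, 161 and 165 in UTX knockout cells and 131, 138 and 138 in libraries labelled MLL4 knockdown. The perturbed groups both overlapped wild type. The log2 fold change was 0.21 (SE 0.12, -0.05 to 0.46, adjusted p = 0.253) in UTX knockout cells and 0.00 (SE 0.12, -0.25 to 0.26, adjusted p = 0.987) in libraries labelled MLL4 knockdown. Jak1 lies on chromosome 4, whose 986 tested genes had a median log2 fold change of -0.15 in UTX knockout cells and -0.21 in libraries labelled MLL4 knockdown. Relative to its chromosome Jak1 stood at 0.37 (adjusted p = 0.0642) and 0.21 (adjusted p = 0.233). A fit that also took the replicate numbers as a block gave 0.38 (adjusted p = 0.0426) for UTX knockout cells, which passed. The labels do not state that the numbers pair libraries. Between the perturbed groups Jak1 differed by -0.20 (SE 0.12, adjusted p = 0.211). Jak1 overlaps Raver2 on the opposite strand, which had 579 to 1121 counts per library, and the strand setting of the counting is not given in the sources used here.

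Jak2, a second kinase of cytokine receptors, was the lowest of the 8 genes per kilobase of exon in every group. It stood at 14.6, 13.9 and 15.1 CPM in wild type, 10.7, 13.7 and 12.7 in UTX knockout cells and 7.75, 8.33 and 8.68 in libraries labelled MLL4 knockdown. The groups did not overlap, although the highest UTX knockout library, at 13.7 CPM, lay just under the lowest wild type library. Jak2 fell in libraries labelled MLL4 knockdown by 0.82 on the log2 scale (SE 0.14, 95% interval -1.13 to -0.50, adjusted p = 0.00212). Against the UTX knockout the difference was -0.58 (SE 0.14, adjusted p = 0.0121), a call lost when UTX knockout replicate 2 was left out (adjusted p = 0.0596). The value in UTX knockout cells was -0.23 (SE 0.14, -0.54 to 0.08, adjusted p = 0.291). Per kilobase, Jak1 exceeded Jak2 by 6.47 ± 0.567 times in wild type, 8.85 ± 0.591 times in UTX knockout cells and 11.5 ± 0.354 times in libraries labelled MLL4 knockdown (SD, n = 3), with no overlap between groups.

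Stat3, the transcription factor at the end of the receptor cascade, was higher in both perturbed groups by similar amounts. It stood at 112, 96.2 and 118 CPM in wild type, 142, 169 and 164 in UTX knockout cells and 155, 157 and 147 in libraries labelled MLL4 knockdown. All 6 perturbed libraries lay above the 3 wild type libraries, and the perturbed groups overlapped. The log2 fold change was 0.54 (SE 0.11, 95% interval 0.30 to 0.79, adjusted p = 0.00969) in UTX knockout cells and 0.50 (SE 0.11, 0.25 to 0.75, adjusted p = 0.00813) in libraries labelled MLL4 knockdown. Leaving out UTX knockout replicate 2 ended the former call (0.49, adjusted p = 0.0515). Stat3 has 9.53 kb of exon in total. With the length trend of each library removed it stood at 0.46 in UTX knockout cells and 0.39 in libraries labelled MLL4 knockdown, and both calls held. The difference between the perturbed groups was -0.04 (SE 0.11, -0.29 to 0.20, adjusted p = 0.793). Stat3 overlaps Stat5a on the opposite strand, which had 97 to 343 counts per library against 2147 to 3898 for Stat3.

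**Figure D2:**
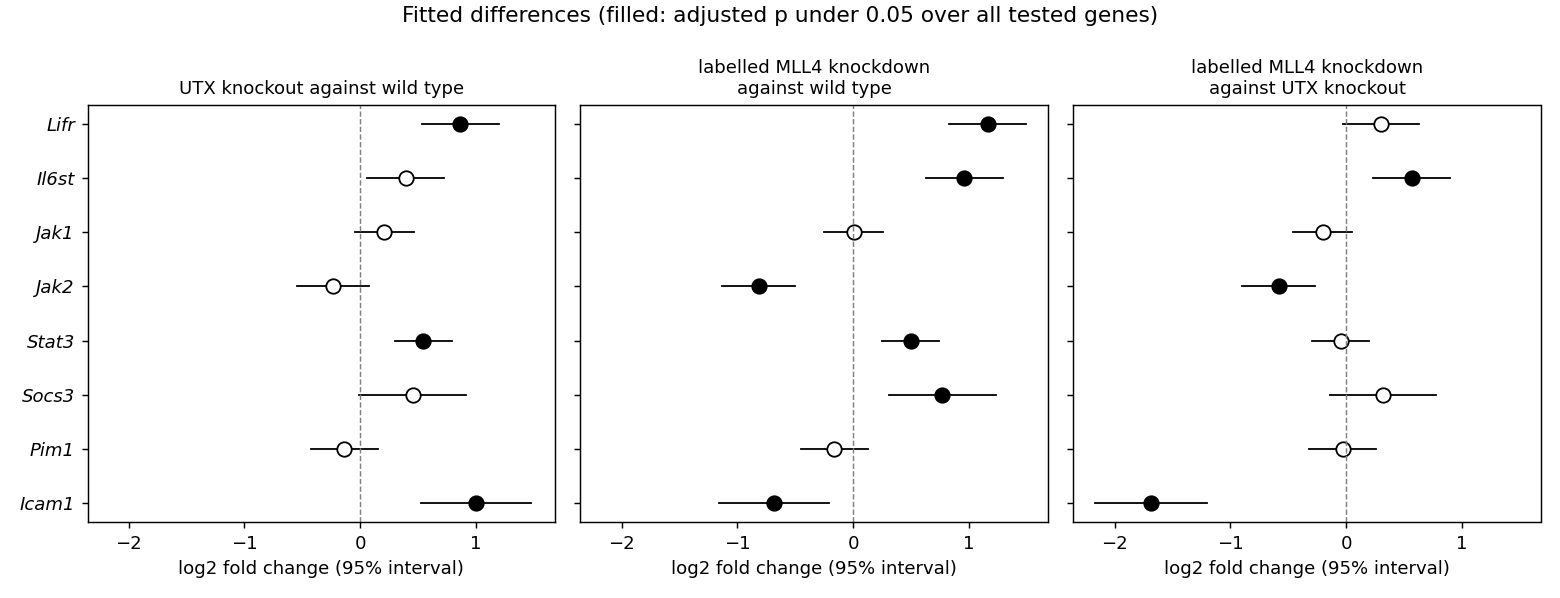
Fitted log2 fold changes of the 8 genes (horizontal axes) with 95% intervals in the 3 comparisons, filled where the adjusted p over all tested genes was under 0.05. Lifr and Stat3 are filled to the right of 0 in both comparisons with wild type, and Icam1 lies right of 0 in the first panel and left of 0 in the other panels.

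Socs3 encodes the inhibitor that binds gp130 and its JAK kinases and shuts the signal down, and STAT3 itself induces it. Per kilobase of exon it was the most abundant of the 8 transcripts in each group. It stood at 144, 226 and 223 CPM in wild type, 248, 241 and 322 in UTX knockout cells and 247, 373 and 390 in libraries labelled MLL4 knockdown. Every perturbed library lay above every wild type library, but the spread within groups was wide, and wild type replicate 1 was the lowest of all. The rise in libraries labelled MLL4 knockdown was 0.77 on the log2 scale (SE 0.21, 95% interval 0.31 to 1.23, adjusted p = 0.0203). That call ended without replicate 2 (adjusted p = 0.0778) or replicate 3 (0.0826) of that group. For UTX knockout cells the value was 0.45 (SE 0.21, -0.01 to 0.91, adjusted p = 0.167) and did not pass, nor did the difference between the perturbed groups (0.32, SE 0.21, adjusted p = 0.279). The block of replicate numbers gave 0.48 (adjusted p = 0.0254) in UTX knockout cells, which passed. Without wild type replicate 1 Socs3 stood at 0.61 (adjusted p = 0.0384) in libraries labelled MLL4 knockdown and at 0.29 (adjusted p = 0.327) in UTX knockout cells. Wild type replicate 1 is also the library with low fibroblast and trophectoderm markers, whose part in these values was not tested.

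Relative to Stat3, Socs3 did not separate the groups. Per kilobase the ratio of Socs3 to Stat3 was 6.08 ± 1.74 in wild type, 5.65 ± 0.889 in UTX knockout cells and 7.27 ± 1.82 in libraries labelled MLL4 knockdown (SD, n = 3). Single libraries ranged from 4.26 to 7.73, from 4.71 to 6.47 and from 5.24 to 8.73, so all groups overlapped.

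Pim1, a serine/threonine kinase gene that STAT3 can induce, passed no test. It stood at 153, 117 and 122 CPM in wild type, 107, 123 and 125 in UTX knockout cells and 131, 112 and 107 in libraries labelled MLL4 knockdown. The 3 groups overlapped, and wild type replicate 1 was the highest library. The log2 fold changes were -0.14 (SE 0.13, 95% interval -0.43 to 0.15, adjusted p = 0.527) and -0.16 (SE 0.13, -0.45 to 0.13, adjusted p = 0.391) against wild type, and -0.03 (SE 0.13, -0.32 to 0.26, adjusted p = 0.895) between the perturbed groups. A rise of Pim1 as large as that of Socs3 in libraries labelled MLL4 knockdown lies outside these intervals.

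Icam1, a cell adhesion protein that cytokines induce, was called in opposite directions in the perturbed groups, alone among the 8 genes. It stood at 62.4, 72.9 and 75.7 CPM in wild type, 88.7, 158 and 176 in UTX knockout cells and 36.7, 46.6 and 48.0 in libraries labelled MLL4 knockdown. No group overlapped another, and UTX knockout replicate 1 was much nearer to wild type than the other 2 knockout libraries. Icam1 rose in UTX knockout cells by 1.00 on the log2 scale (SE 0.22, 95% interval 0.53 to 1.48, adjusted p = 0.0116), a call lost when UTX knockout replicate 2 was left out (0.91, adjusted p = 0.0557). The fall in libraries labelled MLL4 knockdown was -0.68 (SE 0.22, -1.16 to -0.21, adjusted p = 0.0386). That call ended without wild type replicate 2 (adjusted p = 0.0798) or 3 (0.0937) and without replicate 1 (0.132), 2 (0.0881) or 3 (0.0737) of the group labelled knockdown. The direct difference between the perturbed groups was -1.69 (SE 0.22, -2.17 to -1.20, adjusted p = 0.000419), and it passed in all 21 alternatives tried.

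The groups did not overlap for 6 of the 8 genes in each comparison with wild type, 75% of them, where this held for 31.5% of all tested genes in UTX knockout cells and 42.9% in libraries labelled MLL4 knockdown. In the direct comparison it held for 4 of 8, 50%, against 52.6% of all tested genes, a share at the background. Replicate 2 of each group was sequenced in lane 1 and the others in lane 2, per the labels. In lane 2 alone, with 2 libraries per group, 0 of the 8 genes were called in UTX knockout cells. Of all genes 74 were called there, against 2285 with all 9 libraries. Lifr stood at 0.67 (adjusted p = 0.0962), Stat3 at 0.42 (0.134) and Icam1 at 0.94 (0.166). Lifr, Il6st and Jak2 kept their calls in libraries labelled MLL4 knockdown in lane 2 alone. Stat3 (0.40, adjusted p = 0.0793), Socs3 (0.79, 0.115) and Icam1 (-0.70, 0.185) did not. Of all genes 1341 were called there, against 3930 with all libraries. Between the perturbed groups Il6st and Icam1 kept their calls in that lane, and Jak2 lost its own (-0.51, adjusted p = 0.121). Of all genes 1535 were called in that comparison, against 4275 with all libraries. Lane 1 holds 1 library per group and gives no test.

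**Figure D3:**
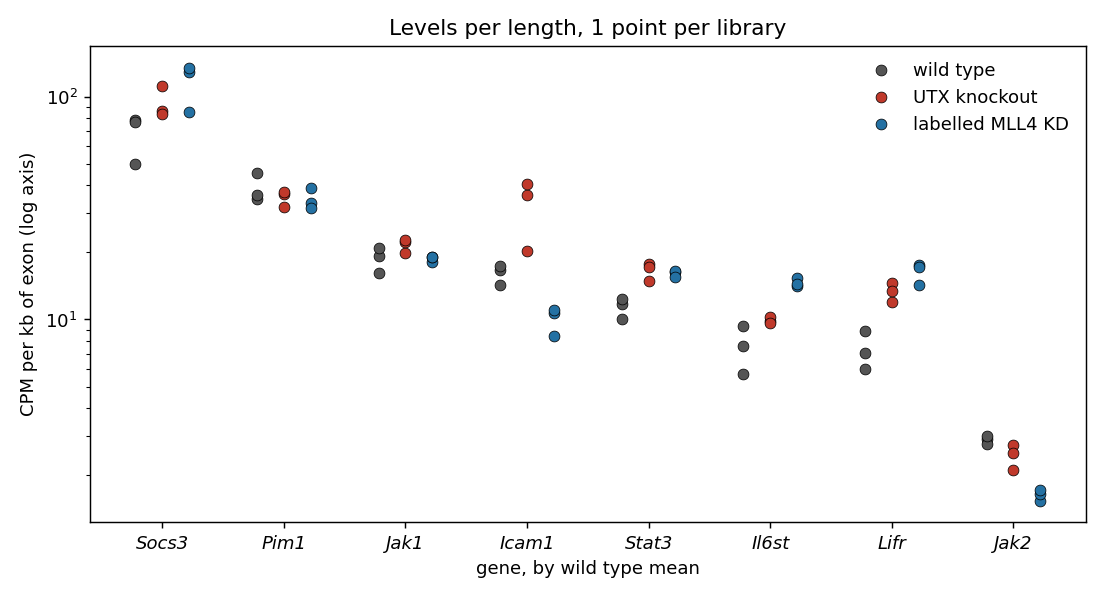
CPM per kilobase of exon (vertical log axis) of the 8 genes, ordered by their wild type mean, with 1 point per library and a colour per group. Socs3 is highest and Jak2 lowest in every group, and Icam1 moves from next to Pim1 in UTX knockout cells to below Il6st in libraries labelled MLL4 knockdown.

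Per kilobase of exon the levels spanned from Socs3 at 68.3 CPM per kb to Jak2 at 2.89 in wild type. Between them came Pim1 at 38.8, Jak1 at 18.8, Icam1 at 16.1, Stat3 at 11.4, Il6st at 7.53 and Lifr at 7.33. The libraries of Jak1 overlapped those of Icam1 and the libraries of Il6st those of Lifr, and other neighbours did not overlap. In UTX knockout cells Icam1, at 32.3, overlapped Pim1 at 35.3 and Jak1 at 21.6, and Lifr, at 13.3, stood above Il6st at 9.89. Among libraries labelled MLL4 knockdown Lifr, at 16.4, overlapped Stat3 at 16.1, and Icam1 was next to last at 10.04. Lifr thus stood below Stat3 in every wild type library and overlapped it in the group labelled MLL4 knockdown. The exon lengths come from GENCODE vM21 and not from the annotation the counts were made with.

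Over the 9 libraries Lifr followed Il6st (Pearson r = 0.921 of log2 CPM) and Stat3 (0.927), and Jak2 ran opposite to Il6st (-0.835). Icam1 had an r of -0.07 with Lifr and 0.21 with Stat3. These values describe libraries that fall into 3 groups and share group differences and depth, and they carry no test. Among 9972 genes compared, the closest patterns were Rbm20 (r = 0.994) and Slit2 (0.990) for Lifr, Fam179b (0.998) and Slc6a6 (0.991) for Il6st, and Zbtb20 (0.978) and Atf7 (0.978) for Jak1. They were Fam107b (0.982) and Sema3b (0.977) for Jak2, and Wdfy1 (0.979) and Srp72 (0.975) for Stat3. For Socs3 they were Fbxo22 (0.977) and Zc3h12a (0.975), for Icam1 Atg12 (0.990) and Pip4k2c (0.988), and for Pim1 Scoc (0.915) and Trh (0.892). Such values are common with 9 libraries in 3 groups: 296 genes had an r over 0.9 with Icam1 and 190 with Lifr, while 1 did with Pim1.

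Among 37 other ligands, receptors, kinases, STATs and inhibitors of gp130 and JAK-STAT signalling, 34 were tested. Of these, 6 rose and 3 fell in UTX knockout cells, where 6.55% of all tested genes rose and 8.92% fell, with a median log2 fold change of -0.02 over the list. With the replicate block 7 rose and 4 fell, where 1551 of all 14772 tested genes rose and 1895 fell. The rises were the STAT inhibitor gene Pias3 (0.74, SE 0.12, adjusted p = 0.00378), Stat5a (1.06, SE 0.20, adjusted p = 0.00678), Stat6 (0.57), Stat2 (0.55), the kinase gene Tyk2 (0.51) and the oncostatin M receptor gene Osmr (2.00). Osmr stayed rare, at 0.163 CPM ± 0.0963 in wild type and 0.687 ± 0.222 in UTX knockout cells (SD, n = 3). Among the falls were Lif itself (-0.83, from 7.45 CPM ± 0.880 to 4.20 ± 0.686) and Socs6 (-0.44). Stat5a and Stat3 overlap on opposite strands, and their shared reads cannot be told apart. Pias3 and Stat5a were called in every fit that left out 1 library. Without UTX knockout replicate 2 the calls of Stat6 (adjusted p = 0.0670), Stat2 (0.0587), Lif (0.0650), Socs6 (0.0794) and Osmr (0.149) ended. Without UTX knockout replicate 3 those of Tyk2 (0.0518), Lif (0.0851), Socs6 (0.111) and Osmr (0.0551) ended, and without wild type replicate 3 those of Lif (0.0544) and Osmr (0.0642). Osmr lost its call without 8 of the 9 libraries.

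Among the same 34 genes 6 rose and 7 fell in libraries labelled MLL4 knockdown, with a median of -0.17, where 10.8% of all tested genes rose and 15.8% fell. The replicate block gave 8 rises and 8 falls, where 2158 of all 14772 tested genes rose and 2879 fell. Tyk2 rose by 1.06 (SE 0.12, adjusted p = 0.000165), from 36.4 CPM ± 3.95 to 75.7 ± 3.88, beside the fall of Jak2. Pias3 (0.63), the SOCS family gene Socs5 (0.64), Pias2 (0.42), Socs2 (0.38) and Osmr (1.86) rose as well. Among the falls were the adaptor gene Gab1 (-0.84), the phosphatase gene Ptpn6 (-1.15), the ligand gene Osm (-1.85), Stat4 (-0.47), Stat5b (-0.61) and Jak3 (-1.33). The calls of Pias2, Socs2 and Stat4 ended without 2 libraries each (adjusted p up to 0.0585, 0.0666 and 0.0652), and those of Stat5b, Jak3 and Osmr without 5 each (up to 0.0797, 0.143 and 0.141), replicates 2 and 3 of the group labelled knockdown among them except for Stat4, whose were replicates 1 and 3. Tyk2, Gab1, Pias3, Ptpn6, Socs5 and Osm kept theirs. Lif stood at -0.48 (SE 0.20, adjusted p = 0.0973) there and did not pass.

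Set against each other, the perturbed groups differed in 13 of the 34 signalling genes: 4 were higher in libraries labelled MLL4 knockdown and 9 lower, with a median of -0.29. Of all tested genes 13.0% were higher and 16.0% lower. With the replicate block the list gave 5 and 12, and all 14772 tested genes gave 2509 and 2908. The transcription factor genes Stat2 (-0.90), Stat4 (-0.74), Stat5a (-1.15) and Stat5b (-0.95) were among the 9. Stat3 differed by -0.04 in the same comparison. Socs5 (0.82), Socs6 (0.69), Tyk2 (0.54) and Pias2 (0.43) were higher, and Ptpn6 (-1.05), Osm (-1.63), Gab1 (-0.40) and Ptpn2 (-0.36) were lower. Osm and Pias2 lost their calls without 2 libraries each (adjusted p up to 0.0613 and 0.0673), Gab1 without 5 (0.153) and Ptpn2 without 6 (0.169). UTX knockout replicate 2 was among these libraries for all 4 genes.

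**Figure D4:**
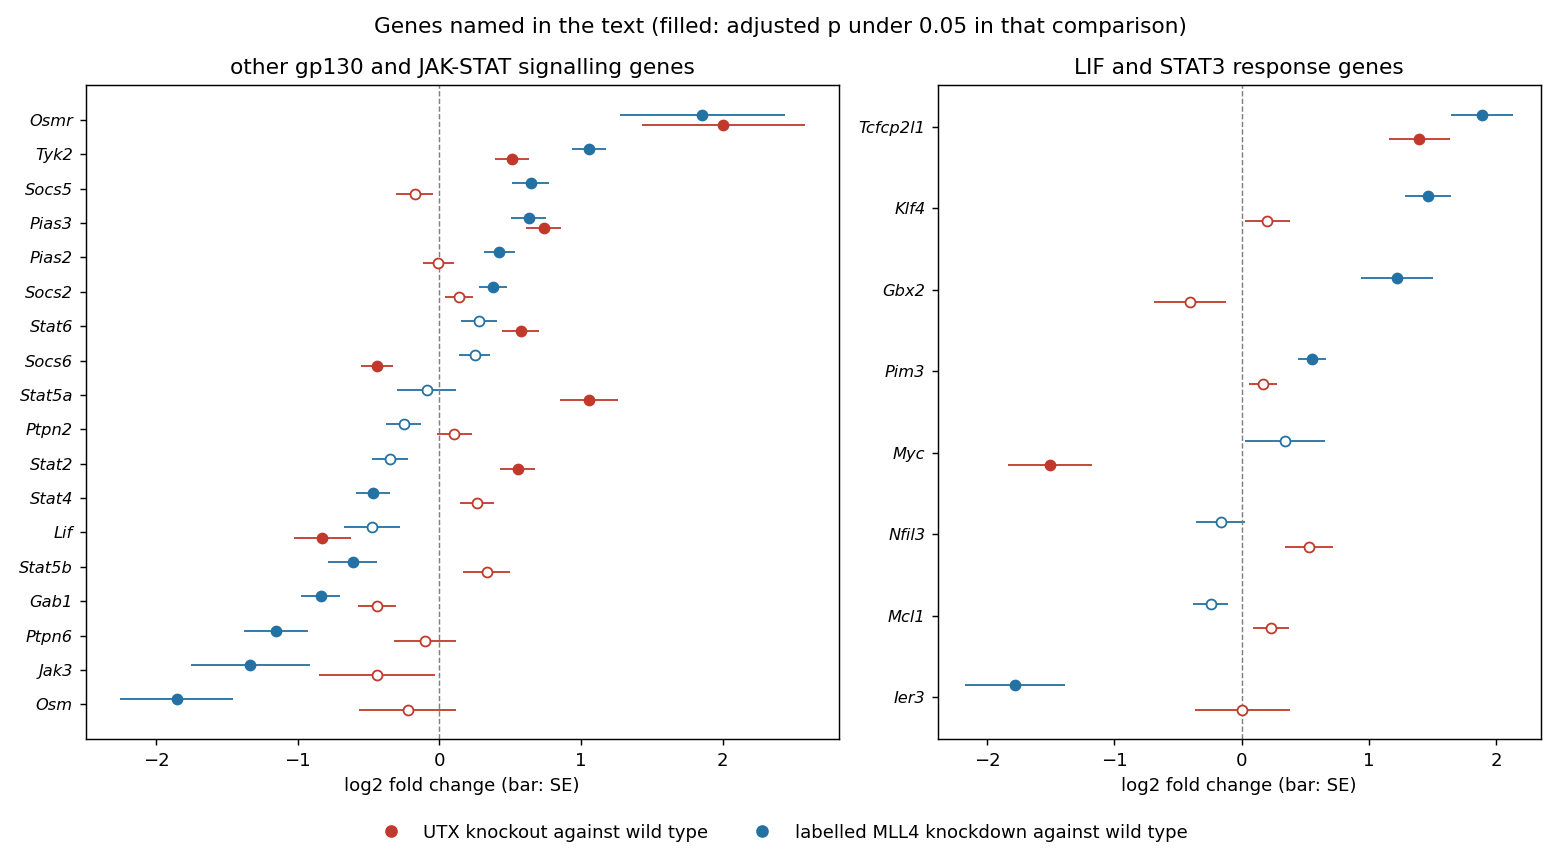
Log2 fold changes against wild type (horizontal axes, bars are the SE) of the signalling and response genes named in the text, which passed the test in at least 1 of the 3 comparisons, by group in colour and filled where that comparison passed. Osmr, Tyk2, Pias3 and Tcfcp2l1 are filled right of 0 in both groups, and Myc is filled left of 0 in UTX knockout cells alone.

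Of 16 genes known to respond to LIF and STAT3, all tested, 1 rose and 1 fell in UTX knockout cells, with a median of 0.08, and 4 rose and 1 fell in libraries labelled MLL4 knockdown, with a median of 0.18. Of all tested genes 15.5% and 26.6% changed in these comparisons, so the 2 and 5 called of 16 are near the background. Tfcp2l1 (Tcfcp2l1 in the table), a transcription factor of naive cells, stood at 240.1 CPM ± 99.4 in wild type, 632 ± 95.3 in UTX knockout cells and 890.4 ± 83.4 in libraries labelled MLL4 knockdown (SD, n = 3). Its log2 fold changes were 1.40 (SE 0.24, adjusted p = 0.00417) and 1.89 (SE 0.24, adjusted p = 0.000327). The growth regulator Myc fell by 1.50 in UTX knockout cells (SE 0.33, adjusted p = 0.0121), lost when UTX knockout replicate 2 was left out (adjusted p = 0.0587). The naive pluripotency factor Klf4 rose in libraries labelled MLL4 knockdown by 1.47 (SE 0.18, adjusted p = 0.000261), from 211 CPM ± 50.5 to 582 ± 60.7. The homeobox gene Gbx2 rose by 1.22 and the kinase gene Pim3 by 0.56, and the early response gene Ier3 fell by 1.78. Pim3, a relative of Pim1, thus passed the test in the group where Pim1 stood at -0.16. With the replicate block the number of response genes called was 5 in UTX knockout cells, 3 up and 2 down. In libraries labelled MLL4 knockdown it was 8, 6 up and 2 down. The block also raised the calls over all 14772 tested genes, to 3446 and 5037 in these comparisons.

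Directly compared, 4 response genes were higher in libraries labelled MLL4 knockdown and 3 lower, with a median of 0.39, where 28.9% of all tested genes changed. The replicate block gave 6 higher and 3 lower, where 5417 of all 14772 tested genes changed. Klf4 (1.26, SE 0.18), Gbx2 (1.63, SE 0.29) and Myc (1.84, SE 0.33) were higher and Ier3 (-1.78, SE 0.39) was lower, and these 4 calls held without any single library. Pim3 (0.38), Nfil3 (-0.69) and Mcl1 (-0.48) passed too, but each lost its call without any of 4 or 5 libraries, UTX knockout replicate 2 among them (adjusted p = 0.0993, 0.0952 and 0.108 without it).

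Icam1 is also known as a gene of NF-kappaB and interferon signalling, and 12 genes of those pathways were examined, of which 9 were tested. In UTX knockout cells, where Icam1 was high, 0 rose and 2 fell, with a median of -0.25. Irf1, an interferon-induced factor, fell by 0.87 (SE 0.15, adjusted p = 0.00423), and the chemokine gene Cxcl10 stood at 1.16 CPM ± 0.234 in wild type and at 0.0164 ± 0.0283 in UTX knockout cells (SD, n = 3; adjusted p = 0.00133). In libraries labelled MLL4 knockdown, where Icam1 was low, 3 rose and 1 fell, with a median of -0.18. The NF-kappaB subunit genes Nfkb1 and Rela rose by 0.80 (SE 0.14) and 0.47 (SE 0.14) and the inhibitor of apoptosis gene Birc3 by 0.81 (SE 0.22). Cxcl10 fell there to 0.0660 CPM ± 0.0578. Among the genes not called there, Irf1 (-0.43, adjusted p = 0.0513), Relb (-0.50, 0.0787), Tnfaip3 (-0.21) and Nfkb2 (-0.18) lay on the side of Icam1. Nfkbia (0.24), also not called, lay above 0. Rela and Birc3 lost their calls without replicate 2 (adjusted p = 0.0714 and 0.0593) or 3 (0.0768 and 0.0563) of the group labelled knockdown, Rela also without replicate 1 (0.0587) and Birc3 without wild type replicate 3 (0.0530). Directly compared, 4 of the 9 were higher in libraries labelled MLL4 knockdown and 0 lower: Nfkb1 (1.05), Birc3 (1.52), Rela (0.67) and Irf1 (0.44). Irf1 lost its call without any of 5 libraries (adjusted p up to 0.166). These 4 called genes and Icam1 differed in opposite directions between the perturbed groups. The rest of the list was not called, with Cxcl10 (1.71), Nfkbia (0.39) and Relb (0.006) above 0. Tnfaip3 (-0.36) and Nfkb2 (-0.21) lay on the side of Icam1. The part of these pathways in the level of Icam1 was not tested. For this list of 9 the counts called were 2, 4 and 4 in the 3 comparisons, beside 15.5%, 26.6% and 28.9% of all tested genes. With the replicate block the counts were 3, 5 and 4, where 3446, 5037 and 5417 of all 14772 tested genes were called. Of 13 called genes of the 3 lists in UTX knockout cells 0 were called in lane 2 alone. Of 22 in libraries labelled MLL4 knockdown 8 were, and of 24 between the perturbed groups 11 were. Over all genes the calls went from 2285, 3930 and 4275 to 74, 1341 and 1535 in lane 2 alone.

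Markers of other cell types differed between the groups. Summed fibroblast or feeder markers (7 of 7 with counts) ran from 46.5 to 229 CPM in wild type, 13.7 to 27.2 in UTX knockout cells and 19.2 to 21.6 in libraries labelled MLL4 knockdown. Tagln and Acta2 made up most of the wild type sums. Col3a1 and Postn were at 0 in all 3 UTX knockout libraries, in wild type replicate 1 and in replicate 1 of the group labelled knockdown, and at most at 0.761 CPM elsewhere. Thy1, of the same list, stood at 3.99 to 5.30 CPM in UTX knockout cells, close to wild type replicates 2 and 3 (4.01 and 3.85), and at 9.66 in wild type replicate 1. Summed trophectoderm markers (6 of 6) ran from 53.4 to 484, 22.9 to 47.1 and 24.3 to 26.7 CPM, and summed neuroectoderm markers (3 of 3 in the table) from 130 to 172, 46.6 to 55.1 and 52.8 to 64.6. Summed primitive endoderm markers (6 of 6) stood in the same order as Il6st, at 9.09 to 11.0, 14.0 to 16.9 and 20.2 to 22.1 CPM. Pdgfra and Gata6 followed that order, Pdgfra at 1.02 to 1.51, 2.37 to 3.20 and 6.73 to 7.97 CPM. Gata4 was highest in UTX knockout cells (8.05 to 11.1 CPM against 7.16 to 8.02 in libraries labelled MLL4 knockdown), and Sox7 was not higher there than in wild type (0.649 to 1.23 against 0.935 to 1.61). Endothelial markers (3 of 4 with counts, Emcn at 0 in all libraries) ran from 14.1 to 27.1, 14.6 to 23.3 and 33.6 to 37.8 CPM. Tek made up most of these sums, at 12.1 to 26.1, 11.3 to 18.3 and 32.3 to 36.5 CPM. Kdr was instead highest in UTX knockout cells, at 0.883 to 1.75, 3.29 to 5.06 and 1.02 to 1.24 CPM in the same order. Cdh5 was at most at 0.554 CPM in any library. Leukocyte markers (4 of 4) summed to at most 5.20 CPM, and mesendoderm markers (4 of 4) to 12.2 to 20.02 CPM over all libraries. The part of these cell types in the differences of the 8 genes was not tested.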

How the data were processed

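RNA was sequenced in 9 libraries. The authors deposited raw read counts per gene symbol, 1 column per library, and each column matched a library by its title. Per the submitters' processing notes the tools were STAR 2.4 and HTSeq 0.6.1, and the builds named are hg19 and mm9, without roles. Neither annotation nor strand setting is given in the sources used here.

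Here 14772 of 33924 genes passed filterByExpr and were tested with edgeR 4.0.16 (R 4.3.3): TMM factors, a quasi-likelihood fit of group over the 9 libraries, two-sided tests, Benjamini-Hochberg adjusted p under 0.05 over all tested genes. CPM are TMM-scaled, and log2 CPM for likeness used a prior count of 2. The fit was tested on simulated data. Intervals are at 95%. Libraries of a group differed by more than sampling noise (chi-square over its degrees of freedom 6.42 to 56.5). Total counts per library, 18570746 to 23874816, set the counting precision.

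The 8 genes and the lists were chosen with earlier results of these data known. From each list the genes past the threshold are named, except for some that enter the counts and medians but are not reported here. Of the list entries, Tfcp2l1 was matched through its older symbol and Sox1 was absent. Likeness names the 2 genes of highest r. Deviations from the group mean correlated between libraries of the same number, here replicates 1 to 3. Values were 0.415, 0.168 and 0.381 for the UTX knockout against wild type. They were 0.416, 0.182 and 0.238 for the group labelled MLL4 knockdown, and 0.467, 0.181 and 0.308 between the perturbed groups. Libraries of different numbers reached 0.158, 0.154 and 0.226 in these 3 comparisons, the last above the 0.181 of replicate 2. The pairing was thus weakest for replicate 2. The replicate block takes the numbers to pair the libraries, from the data and not from the labels, and its calls rest on that. Alternatives were DESeq2 1.42.0, other size factors and filters, 2-group fits, each library left out, lane 2 alone, the replicate block, and offsets for exon length or chromosome.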

Additional observations from a re-analysis of the deposited data

How the results depend on the processing

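For the 24 fold changes of the 8 genes, 21 alternatives gave 504 values: 459 kept their direction and side of the threshold, 19 lost the call, 9 gained one and 17 changed sign, the last only in values near 0. Genes called in the UTX knockout numbered 2285, and 1240 with only the 2 groups compared, 3446 with the replicate block, 74 in lane 2 only, 4142 with length offsets and the block, and 833 to 2854 with 1 library left out, the lowest without UTX knockout replicate 2. Of the 8 genes 3 were called there, and 4 with the replicate block, 0 in lane 2 only, 5 with length or chromosome offsets and the block, and 1 to 4 with 1 library left out. In the libraries labelled MLL4 knockdown 3930 genes were called, 1341 in lane 2 only and 2273 to 4108 with 1 library left out. Of the 8 genes 6 were called there, and 3 in lane 2 only and 4 to 6 with 1 library left out. Between the perturbed groups 4275 were called, 1535 in lane 2 only and 2556 to 5281 with 1 left out. Of the 8 genes 3 were called there, and 2 in lane 2 only and 2 to 3 with 1 left out. With length offsets and the block 5 were (adding Lifr, adjusted p = 0.0299, and Socs3, 0.0404). With DESeq2 size factors, upper-quartile factors, DESeq2's Wald test and either other filter the called genes among the 8 were the same in all 3 comparisons. The replicate block changed no other call of the 8 genes than that of Socs3 in the UTX knockout.

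Signs changed for Jak1 in the libraries labelled MLL4 knockdown (-0.041 with upper-quartile factors, -0.012 with the stricter filter, -0.11 in lane 2 only, -0.054 with length offsets, -0.053 with the block as well, -0.092 to 0.092 with 1 library left out) and for Pim1 in the UTX knockout (-0.21 to 0.010 with 1 left out). Between the perturbed groups they changed for Stat3 (0.0029 with chromosome offsets, 0.0033 with the block as well, -0.12 to 0.0060 with 1 left out) and Pim1 (0.031 in lane 2 only, -0.12 to 0.031 with 1 left out). The cause was not tested, except that lane 2 alone holds fewer libraries. A group left with 2 libraries takes its spread from the pooled fit. Alternatives for the further lists were added after seeing the data: of 13, 22 and 24 called list genes, 5, 14 and 15 kept the call without any single library.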
